A study of Mus musculus with 8 samples.

Results

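Icam1, Icam2, Itgal and Itgb2 encode the adhesion pair that holds a T cell against an antigen-presenting cell: ICAM-1 and ICAM-2 on one side, and the αL and β2 chains of the integrin LFA-1 on the other. These 4 genes were taken by symbol from a deposited table of 10412 genes in cells labelled as mouse classical dendritic cells (DCs), and all 4 were among the 8616 genes that passed the filter on low counts. RNA was measured by bulk MARS-seq, which sequences the 3′ ends of transcripts and counts each captured molecule once by its unique molecular identifier (UMI). Popliteal lymph nodes of chimeric C57BL/6 mice were the source, and CD45, MHC-II and CD11c the markers of the sort. At 16 weeks of age, the animals were 8 weeks past bone marrow transplantation (BMT in the labels).

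The 8 libraries fall into 4 groups of 2, and the transplantation is common to all of them. The labels give no replicate numbers, so replicates 1 and 2 of a group are named in accession order and pair with nothing in another group. WT resting and WT activated libraries came from WT/WT chimeras, and DKO resting and DKO activated libraries from ICAM-1/2 DKO/WT chimeras. Resting mice had received no treatment, and activated mice 10 µg of a monoclonal antibody against CD40 into the footpad. In a chimera, cells that the host still has keep the host's genotype, and their share among the sorted cells is unknown here. The sources used do not describe the alleles of the DKO, the time between injection and sorting, or whether the libraries of a group came from separate animals, so p-values measure the spread between these libraries, which may be technical.

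Each library held between 401984 and 1294777 UMIs in total. The shallowest pair were both DKO, DKO resting replicate 1 with 401984 UMIs and DKO activated replicate 2 with 471235. Genes that define B cells and macrophages were present in every library, and of the DC markers some were low and others well detected. Levels are in CPM, the UMIs of a gene relative to library size after TMM scaling. Itgax, which encodes the sorted marker CD11c, stood at 16.1 to 43.0 CPM, Flt3 at 4.01 to 30.9 CPM, Zbtb46 at 0 to 10.3 CPM and Xcr1 at 0 to 6.52 CPM. Cd74, the MHC class II invariant chain that B cells also express, stood at 11113 to 16130 CPM. Sirpa was at 14.2 to 57.3 CPM and Cd209a at 0 to 12.0 CPM. Higher DC markers were Irf8 at 487 to 892 CPM, Ciita at 303 to 603 CPM and Ccr7 at 102 to 295 CPM. Fscn1 was at 65.6 to 270 CPM, Irf4 at 74.3 to 169 CPM and Batf3 at 21.4 to 76.4 CPM. Clec9a was not analysed here. Which of the sorted cells the higher markers came from was not tested. The 15 measured DC markers summed to 35323 to 42886 CPM, most of it from Cd74 and the MHC class II genes, which B cells share. The 12 measured B cell markers summed to 8020 to 12378 CPM over all libraries and the 10 T cell markers to 1047 to 2787 CPM, and the 8 NK cell markers to 235 to 690 CPM. The 10 macrophage and monocyte markers summed to 2229 to 2566 CPM in WT resting, 3007 to 3026 in DKO resting, 5000 to 5807 in WT activated and 11734 to 15395 in DKO activated libraries. Of 10 endothelial and platelet markers only Pf4 was measured, at 2.11 to 8.99 CPM. In such bulk samples, fewer cells of a type and less RNA per cell cannot be told apart.

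LFA-1 on a T cell binds ICAM-1 and ICAM-2 on the partner cell only weakly until signals from the T cell receptor or a chemokine receptor extend the integrin, through the GTPase Rap1 and the adaptors talin and kindlin. ICAM-1 is a well-known target of NF-kB and of interferon signalling and is low on resting and high on stimulated cells. ICAM-2 is constitutive on lymphocytes, endothelium and platelets, and binds LFA-1 less strongly. Leukocytes, DCs included, carry LFA-1 themselves, and the β2 chain is shared with the CD11b, CD11c and CD11d integrins.

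The upstream sequence of Icam1 is shown because it was the only one available for this set. It is the RefSeq window of the 250 bases before the annotated start, build GRCm38.p6, chr9:21015690-21015939, plus strand, written 5′ to 3′. RefSeq promoters were matched for 1 of the 4 genes, and Icam2, Itgal and Itgb2 had no match. Capitals mark the motif matches.
Icam1: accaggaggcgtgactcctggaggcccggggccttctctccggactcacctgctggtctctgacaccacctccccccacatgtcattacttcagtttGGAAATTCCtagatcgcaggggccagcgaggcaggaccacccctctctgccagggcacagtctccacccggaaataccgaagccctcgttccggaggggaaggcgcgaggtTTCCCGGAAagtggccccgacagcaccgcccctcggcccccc
The first match, 153 to 145 bases before the start, has the letters GGAANNTCC, searched as an NF-kB motif, and reads as a match on both strands. Of 32851 RefSeq windows of this length, 3.59% held it. The second match, 42 to 34 bases before the start, has the letters TTCNNNGAA, a STAT motif that is its own reverse complement, found in 7.02% of windows. The longer classical kappa-B consensus (0.356% of windows) and the ETS form CCGGAAGT (2.88%), searched on both strands, were not in these letters. The marked stretches do not overlap, and a match is a description of letters, not of binding.

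Icam1 was the only one of the 4 genes called between genotypes, with few molecules left in DKO libraries. Icam1 (ENSMUSG00000037405.8, GENCODE M21 on mm10, chromosome 9, 21015985 to 21028817, plus strand) has 7 exons in its principal transcript, of which the last, 21027771 to 21028817, is where a 3′ method is expected to place its reads. WT resting libraries held 239 and 92 Icam1 UMIs, WT activated libraries 312 and 353, DKO resting libraries 4 and 11, and DKO activated libraries 30 and 15. Scaled for depth these were 168 and 123 CPM, 407 and 432 CPM, 9.49 and 13.6 CPM, and 38.5 and 35.8 CPM. No library of one group overlapped another, and the order of the levels was WT activated, WT resting, DKO activated and DKO resting. In the DKO resting libraries a floor of 3 UMIs corresponds to 7.11 and 3.71 CPM, so these values rest on few molecules.

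The genotype difference of Icam1 was −3.59 ± 0.34 (log2, SE) at rest (edgeR adjusted p = 2.45e-08) and −3.48 ± 0.27 after activation (edgeR adjusted p = 2.88e-10). By p it ranked 3 of 8616 genes at rest and 1 of 8616 after activation, in comparisons in which 0.162% and 0.174% of all genes tested were called, meaning an adjusted p under 0.05. In sum, DKO libraries held 8.00% of the WT level at rest (15 against 331 UMIs). The exact 95% binomial interval was 4.43 to 13.4%, counting error only. After activation DKO libraries held 8.96% (45 against 665 UMIs, 6.47 to 12.1%). Those intervals overlap. What the remaining UMIs come from was not tested. An antisense gene, Gm47079 (chromosome 9, 21028307 to 21032357, minus strand), overlaps the last exon of Icam1, and without a stated strand setting reads of the pair cannot be told apart.

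**Figure D1:**
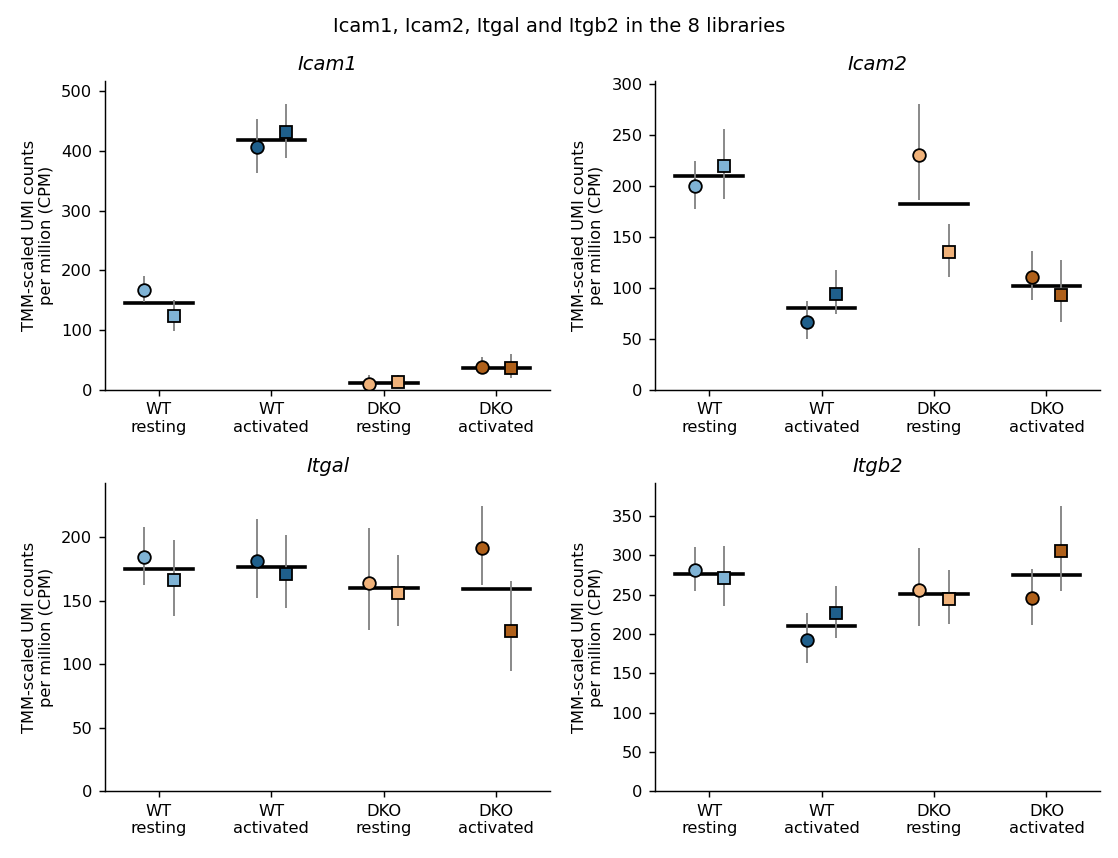
Levels of the 4 genes in each library, as TMM-scaled CPM on an axis from 0 (circle replicate 1, square replicate 2, horizontal bar the mean of 2 libraries, vertical line the 95% Poisson counting interval). Icam1 reaches at most 38.5 CPM in DKO libraries and at least 123 CPM in WT libraries, Icam2 is lower in activated libraries of both genotypes, and the Itgal values stay between 126 and 191 CPM.

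Icam1 was higher in activated than in resting libraries, in WT and, from its low level, in DKO. The rise was 1.51 ± 0.22 (log2, SE) in WT, a 2.84-fold change with a 95% interval of 2.10 to 3.86 (edgeR adjusted p = 8.65e-06), where 8.44% of all genes were called higher. In DKO it was 1.62 ± 0.42, a 3.06-fold change with an interval of 1.68 to 5.57 (edgeR adjusted p = 0.00825), where 9.02% of all genes were called higher. The difference between these responses was 0.11 ± 0.45 with an interval of −0.80 to 1.02 (edgeR adjusted p = 0.997). As a fold, that interval runs from 0.574 to 2.02. The authors' deposited table gives 1.43 (adjusted p = 8.45e-07) in WT and 1.09 (adjusted p = 0.0294) in DKO for the same rises. All 9 tested macrophage markers also rose in the mean of both genotypes, with the sums given above highest in DKO activated libraries, and their part in the rise of Icam1 was not tested. The rise in WT was called in all 16 alternatives, and the one in DKO in 11 of 16, with adjusted p from 0.00897 to 0.103. The call was lost in limma-voom (1.56), in a fit of the DKO libraries alone (1.62) and without the shallowest pair of libraries (1.48). Both of that pair are DKO, so their removal leaves 1 library in each DKO group. Leaving out DKO resting replicate 1 gave 1.42, and leaving out DKO activated replicate 1 gave 1.55, in neither case past the threshold.

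Icam2, the second gene named in the DKO, was not detectably lower in DKO libraries and moved opposite to Icam1 on activation. Icam2 (ENSMUSG00000001029.15, chromosome 11, 106377656 to 106388075, minus strand) has 4 exons in its principal transcript and a last exon at 106377656 to 106377994. At rest the WT libraries held 199.5 and 219 CPM of Icam2 (284 and 164 UMIs), and the DKO ones 230.0 and 135 CPM (97 and 109 UMIs). Among activated libraries the values were 66.5 and 94.1 CPM for WT (51 and 77 UMIs) and 111 and 93.1 CPM for DKO (86 and 39 UMIs). The genotypes overlapped in both states, and each activated library was below each resting one. In the order of the means, WT resting (209 ± 14.1 CPM, SD, n = 2), DKO resting (182 ± 67.2), DKO activated (102 ± 12.3) and WT activated (80.3 ± 19.6), neighbours of the same state overlapped, and the resting and activated groups did not.

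DKO over WT, Icam2 was at −0.23 ± 0.25 at rest (95% interval −0.74 to 0.27, edgeR adjusted p = 0.999) and at 0.35 ± 0.28 after activation (−0.22 to 0.93, edgeR adjusted p = 0.9999). As the mean of both states it was at 0.06 ± 0.19, a fold of 1.04 with an interval of 0.802 to 1.36 (edgeR adjusted p = 0.995), where 0.209% of all genes were called. The mean of the states changes sign without DKO resting replicate 1 (−0.13), among others. The sources used here do not say which part of Icam2 is deleted. A 3′ tag outside the deleted part need not show a deletion. Whether these values can check the Icam2 label was not tested.

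Icam2 fell by 1.37 ± 0.26 on the log2 scale in WT on activation (edgeR adjusted p = 3.06e-04), where 5.92% of all genes were called lower. In DKO it fell by 0.79 ± 0.27 (edgeR adjusted p = 0.0458), where 6.33% were called lower. The fall in WT was called in all 16 alternatives. The fall in DKO was called in 5 of 16, with values from −1.17 to −0.30 and adjusted p from 0.00918 to 0.615. It was −0.42 without DKO resting replicate 1 and −0.30 without the shallowest pair of libraries. In the authors' deposited table it was −0.74 with an adjusted p of 0.0862. The difference between the responses was 0.59 ± 0.37 (95% interval −0.17 to 1.35, edgeR adjusted p = 0.997). As the mean of both genotypes, Icam2 fell by 1.08 ± 0.19 (edgeR adjusted p = 4.32e-05) and Icam1 rose by 1.56 ± 0.23 (edgeR adjusted p = 5.81e-06), where 13.4% of all genes were called lower and 16.3% higher. B and T cells also express Icam2. Of 11 tested B cell markers 6 fell and 3 rose in the same comparison, of 10 T cell markers 5 fell and 0 rose, and their part in the fall of Icam2 was not tested.

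**Figure D2:**
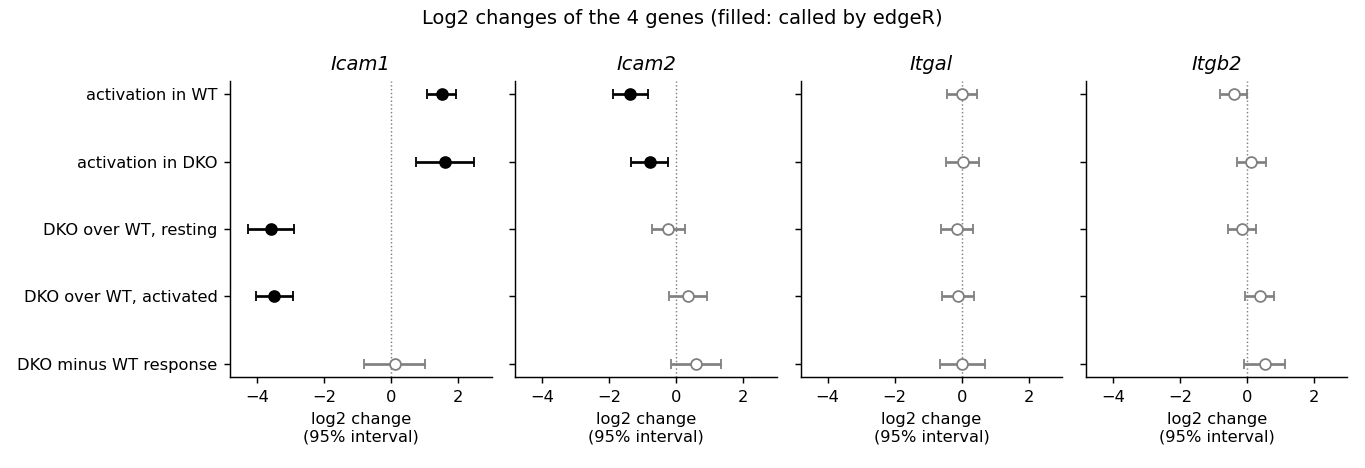
Log2 changes of the 4 genes with 95% intervals (edgeR, 8 libraries in a single fit), for activation in each genotype, DKO over WT in each state, and the DKO minus WT difference of the responses. Filled points were called, open points were not. Icam1 has called points on both sides of 0, Icam2 has called falls on activation, and Itgal and Itgb2 have open points throughout.

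The balance of both ligands within a library, which does not depend on how libraries are scaled, turned over between resting and activated WT libraries. WT resting libraries held 0.842 and 0.561 Icam1 UMIs per Icam2 UMI, and WT activated libraries 6.12 and 4.58. In DKO resting libraries the ratio was 0.0412 and 0.101, and in DKO activated libraries 0.349 and 0.385. Activated libraries were above the resting ones of their genotype in each case, and the DKO activated libraries stayed below the WT resting ones. These ratios are a description with no test.

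The chains of LFA-1 were detected in every library, and neither was called in any comparison of the main edgeR fit. Itgal (ENSMUSG00000030830.18, chromosome 7, 127296260 to 127335138, plus strand), the αL chain or CD11a, stood at 184 and 166 CPM in WT resting, 164 and 156 in DKO resting, 181 and 171 in WT activated, and 191 and 126 in DKO activated libraries. The groups overlapped on activation in both genotypes. At rest both DKO libraries were below both WT ones (−0.14 ± 0.23, edgeR adjusted p = 0.999), and how many of all genes separate in this way was not counted. The lowest value came from DKO activated replicate 2, a library of low depth with 53 Itgal UMIs. Itgal was at 0.00 ± 0.22 on activation in WT (95% interval −0.45 to 0.46, edgeR adjusted p = 0.994) and at 0.03 ± 0.24 in DKO (−0.46 to 0.52, edgeR adjusted p = 0.956). The mean of both genotypes, 0.02 ± 0.16, had an interval of 0.803-fold to 1.27-fold, and larger changes in either direction lie outside it. Between genotypes Itgal was at −0.13 ± 0.16 as the mean of both states, a fold of 0.915 with an interval of 0.727 to 1.15 (edgeR adjusted p = 0.995).

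Itgb2 (ENSMUSG00000000290.13, chromosome 10, 77530252 to 77565708, plus strand), the β2 chain or CD18, stood at 281 and 272 CPM in WT resting, 256 and 245 in DKO resting, 193 and 226 in WT activated, and 245 and 305 in DKO activated libraries. Both WT activated libraries were below both WT resting ones, while the DKO groups overlapped. On activation it was at −0.40 ± 0.20 in WT (95% interval −0.81 to 0.02, edgeR adjusted p = 0.197) and at 0.13 ± 0.21 in DKO (−0.31 to 0.56, edgeR adjusted p = 0.747). With total UMI count alone as the scaling, the WT value was −0.64 and passed the threshold (edgeR adjusted p = 0.0224), but that scaling moved the median of all genes in this comparison from −0.02 to −0.26. DKO libraries were below WT ones at rest (−0.14 ± 0.21, edgeR adjusted p = 0.999) and above them after activation (0.38 ± 0.21, edgeR adjusted p = 0.9999), in neither case past the threshold. The share of all genes whose libraries separate likewise was not counted. The difference between the responses was 0.53 ± 0.29 (−0.07 to 1.13, edgeR adjusted p = 0.997). In this interaction 0% of all genes were called by edgeR and 0 by DESeq2, and 397 genes had an unadjusted p under 0.05. As the mean of both states, 2 of 9 tested macrophage markers were called higher in DKO and 0 lower, against 0.209% of all genes called. The macrophage marker sums given above were highest in DKO activated libraries, and their part in the Itgb2 values was not tested.

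The ratios of Itgb2 to Itgal lay closer together in the resting than in the activated libraries. The 4 resting libraries held 1.53 and 1.64 Itgb2 UMIs per Itgal UMI in WT and 1.57 and 1.57 in DKO. WT activated libraries were lower, at 1.06 and 1.32. DKO activated libraries stood on either side, at 1.28 and 2.42. The highest ratio came from the same low-depth library that held the lowest Itgal value. Behind the ratios stand 53 to 262 Itgal UMIs and 108 to 400 Itgb2 UMIs per library. They are a description with no test, and their counting error was not computed.

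**Figure D3:**
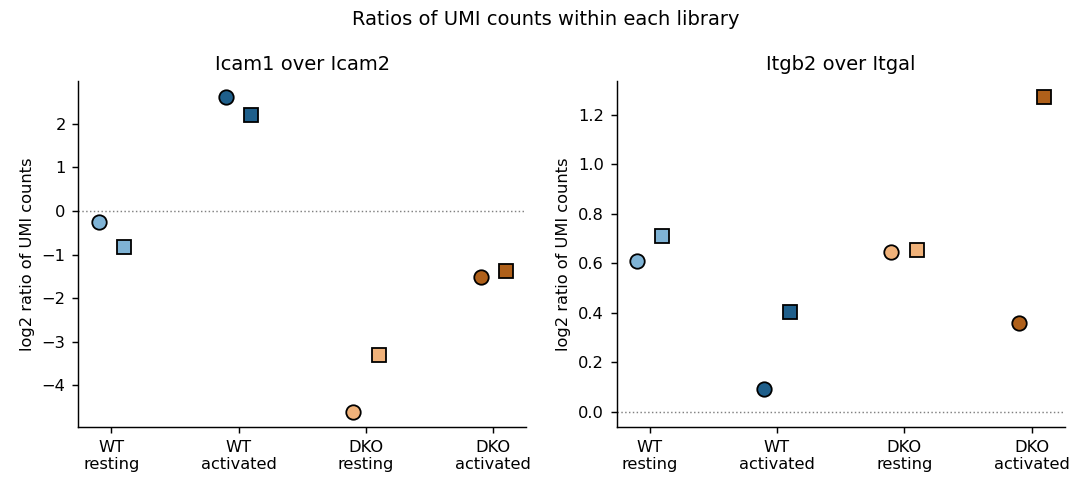
Log2 ratio of UMI counts within each library, on the left Icam1 over Icam2 and on the right Itgb2 over Itgal (circle replicate 1, square replicate 2). On the left the activated libraries lie above the resting ones of their genotype, and on the right the 4 resting libraries lie between 0.61 and 0.71 while the activated ones spread from 0.09 to 1.27.

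Among the other α chains that pair with Itgb2, Itgax (CD11c) and Itgam (CD11b) were scarce beside Itgal. Itgax held 11 to 43 UMIs and Itgam 1 to 16 UMIs per library, and Itgad was not analysed here. Itgax was at 29.2 ± 1.50 CPM in WT resting, 22.9 ± 6.39 in WT activated, 21.1 ± 7.07 in DKO resting and 31.1 ± 16.7 in DKO activated libraries (SD, n = 2). Itgam, also a macrophage gene, was at 5.94 ± 6.51, 16.3 ± 4.61, 10.8 ± 8.24 and 20.6 ± 14.7 CPM in the same groups. As the mean of both genotypes Itgax was at 0.09 ± 0.34 on activation (edgeR adjusted p = 0.884) and Itgam at 1.11 ± 0.54 (edgeR adjusted p = 0.123). Without WT resting replicate 1, Itgam was at 2.19 and passed the threshold (edgeR adjusted p = 0.0379).

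In a module of genes that act on LFA-1 from inside the cell, more fell than rose on activation. The module joins activators and inhibitors, so these counts give no direction of signalling. Of 22 tested genes of this module 9 fell and 3 rose as the mean of both genotypes, with a median of −0.30 against −0.01 over all genes tested, beside the 13.4% and 16.3% called lower and higher. Rasgrp2, the exchange factor that loads Rap1 in platelets and lymphocytes, fell by 2.29 ± 0.19 (log2, SE, edgeR adjusted p = 7.61e-11). WT libraries held 214 ± 24.6 CPM at rest and 45.7 ± 12.8 CPM after activation, and DKO libraries 261 ± 29.7 and 51.7 ± 11.3 CPM (SD, n = 2). Rasgrp1, a Ras exchange factor of lymphocyte receptor signalling, fell by 1.08 ± 0.19, Stk4 (the kinase MST1, which acts with Rap1 and RAPL) by 0.86 ± 0.16, and Cytip, which binds the β2-tail regulator cytohesin-1, by 0.81 ± 0.17. Of the 10 genes that were not called, Tln1 (talin) was at −0.25 ± 0.15, Fermt3 (kindlin-3) at 0.32 ± 0.16 and the GTPase gene Rap1b at 0.00 ± 0.14, and these 3 were named after their values were seen. Of the B cell, T cell and macrophage markers, 6 of 11, 5 of 10 and 0 of 9 fell in the same comparison, and their part in these falls was not tested. Between genotypes 0 of the 22 were called by edgeR and 0 by DESeq2 as the mean of both states, with 0 at an unadjusted p under 0.05. Over all 8616 genes edgeR called 0.209% there, and 487 had an unadjusted p under 0.05. The most abundant, the Rap1 inhibitor gene Sipa1, was at 0.13 ± 0.14.

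Among genes of cortical actin, a list wider than the linkers of ICAM and integrin tails, more rose than fell on activation. Of 16 tested genes 5 rose and 1 fell on activation as the mean of both genotypes, with a median of 0.08, where 16.3% of all genes were called higher and 13.4% lower. All 9 tested macrophage markers rose in the same comparison, and their part in these rises was not tested. The actin-severing protein gene Cfl1 rose by 0.72 ± 0.12 (edgeR adjusted p = 2.48e-05), from 2092 ± 254 to 3373 ± 416 CPM in WT. The actin bundler Lcp1, whose product binds the β2 tail, rose by 0.58 ± 0.12 and Hcls1 by 0.53 ± 0.13. Flna (filamin A), which binds integrin β tails in competition with talin, fell by 0.64 ± 0.15. Ezrin and moesin, the linkers of ICAM tails, were not called, with Ezr at −0.26 ± 0.13 and Msn at −0.25 ± 0.18, and both were named after their values were seen. Between genotypes 0 of the 16 were called by edgeR and 0 by DESeq2 as the mean of both states, with 1 at an unadjusted p under 0.05. Over all 8616 genes edgeR called 0.209% there, and 487 had an unadjusted p under 0.05. Coro1a, the most abundant of the list, was at −0.01 ± 0.12.

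Other adhesion and synapse partners of T cells changed in both directions. Of 20 tested genes 6 rose and 8 fell on activation as the mean of both genotypes, with a median of −0.31, against the same 16.3% higher and 13.4% lower over all genes. Cd40, the receptor that the injected antibody binds, rose by 1.136 ± 0.13 (edgeR adjusted p = 9.99e-08). WT libraries held 242 ± 12.9 CPM at rest and 682 ± 16.4 CPM after activation, and DKO libraries 314 ± 7.83 and 538 ± 22.1 CPM (SD, n = 2). Vcam1, the ligand of the α4 integrins, rose by 2.11 ± 0.35. Its WT levels were 13.3 ± 5.84 CPM at rest and 31.0 ± 5.87 CPM activated, and its DKO levels 7.94 ± 4.52 and 68.6 ± 24.4 CPM. Cd2, an adhesion receptor for CD48 on T, NK and mouse B cells, fell by 1.10 ± 0.14, and Itgb7, a partner chain of α4, by 0.95 ± 0.15. Vcam1 is also a gene of macrophages and stroma, and all 9 tested macrophage markers rose in the same comparison. Between genotypes 0 of the 20 were called by edgeR and 0 by DESeq2 as the mean of both states, with 0 at an unadjusted p under 0.05. Over all 8616 genes edgeR called 0.209% there, and 487 had an unadjusted p under 0.05. By that unadjusted threshold 3 of the 20 passed at rest, 1 after activation and 5 in the interaction, with 0 called in each by both tools. Of all 8616 genes, 448, 424 and 397 passed it in the same order. Cd40 was at 0.02 ± 0.13 in the mean of both states, which joins opposite differences. Both DKO libraries were above both WT ones at rest (0.38 ± 0.19, edgeR adjusted p = 0.967) and below them after activation (−0.34 ± 0.18, edgeR adjusted p = 0.9999). The share of all genes that separate in this way was not counted. The difference between its responses was −0.72 ± 0.27 (95% interval −1.26 to −0.17, edgeR adjusted p = 0.997).

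**Figure D4:**
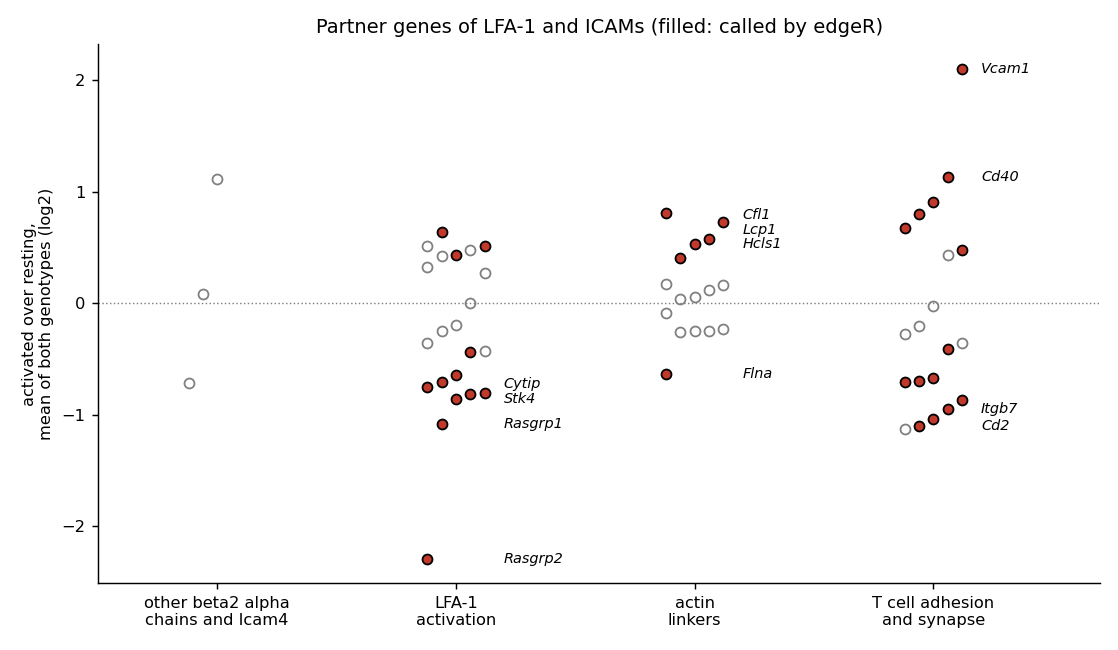
Activated over resting, log2 change as the mean of both genotypes, for each tested gene of the 4 partner lists (filled points called by edgeR, open points not called, the named genes labelled). In the LFA-1 activation list 9 filled points lie below 0 and 3 above, with Rasgrp2 lowest at −2.29, and in the actin list 5 lie above and 1 below.

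Next to Icam1 lies Icam4, a related adhesion gene known from human red cells, and its few counts differed between genotypes without passing the test. Icam4 (chromosome 9, 21029373 to 21030595, plus strand) starts 13.4 kb downstream of the start of Icam1 and lies within the antisense gene Gm47079. WT resting libraries held 2 and 2 Icam4 UMIs, WT activated libraries 2 and 0, DKO resting libraries 6 and 13, and DKO activated libraries 3 and 6. Relative to library size, each DKO library was above each WT library, and how many of all genes separate in this way was not counted. As the mean of both states, 0.209% of all genes were called between genotypes. The depth-scaled ratio of the sums, 28 UMIs against 6, was 7.22 (exact 95% counting interval 2.93 to 21.3). The fitted difference was 2.72 ± 0.79 (log2, SE, edgeR adjusted p = 0.303, and 0.133 to 0.934 over 15 alternatives). Mrpl4, the nearest tested gene upstream, was at 0.01 ± 0.20.

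Genes within 500 kb of the 4 loci were not called between genotypes, beside 18 of all 8616 genes (0.209%) called as the mean of both states. Of all 8616 genes, 487 had an unadjusted p under 0.05 in that comparison. Around Icam1 0 of 24 were called by edgeR and 0 by DESeq2 as the mean of both states, with 2 at an unadjusted p under 0.05, and around Icam2 0 of 19 and 0, with 1. Around Itgal 0 of 36 and 0 were called, with 1 at an unadjusted p under 0.05, and around Itgb2 0 of 9 and 0, with 1. The nearest tested genes beside Icam2, the sodium channel gene Scn4a and the small nucleolar RNA gene Snord104, were at −1.04 ± 1.13 and 0.04 ± 0.23, beside Itgal Sephs2 and Zfp747 at −0.48 ± 0.38 and 0.45 ± 0.44, and beside Itgb2 Fam207a and Pttg1ip at −0.19 ± 0.21 and 0.21 ± 0.21. On activation 5 of the 24 genes around Icam1 rose and 6 fell as the mean of both genotypes, around Icam2 3 and 6 of 19, around Itgal 5 and 6 of 36, and around Itgb2 1 and 1 of 9, beside 16.3% higher and 13.4% lower over all genes. Among the nearest, Scn4a was called lower in the mean of both genotypes, from 11 to 20 UMIs in resting to 0 to 2 in activated libraries, Snord104 was called higher by 0.88 ± 0.23 and Pttg1ip lower, at −0.55 ± 0.21.

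**Figure D5:**
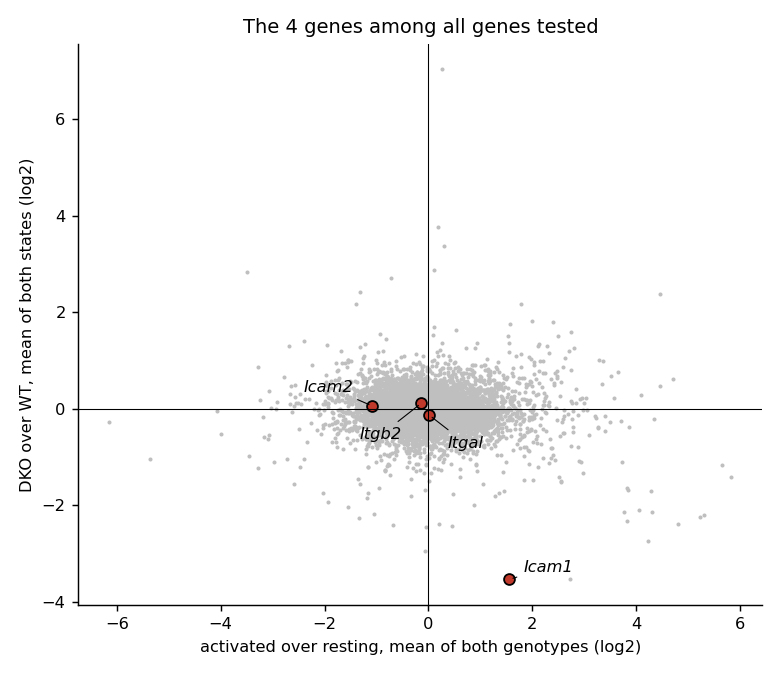
Each tested gene by its log2 change on activation (horizontal, mean of both genotypes) and its log2 difference between DKO and WT (vertical, mean of both states), with the 4 genes in red. Icam1 lies at 1.56 and −3.53, apart from the bulk of the genes, Icam2 at −1.08 and 0.06, and Itgal and Itgb2 near the centre.

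Likeness to each gene was measured as the root mean square difference of log2 CPM centred over the 8 libraries, among 5503 other genes whose log2 CPM averaged at least 5. By this measure the nearest to Icam1 was Xcl1, a chemokine gene of NK and T cells, at 1.28 against a median of 1.88 over all candidates, followed by Mtx2, Snhg1, 2310039H08Rik and Ubfd1 at 1.36 to 1.40. Icam2 was followed closely by Map4k4 (0.16), a kinase gene with mean levels of 144 CPM at rest and 68.5 activated for WT, and 161 and 81.1 CPM for DKO, and by Anxa6, Gse1, Hmces and Dgka (0.19 each), against a median of 0.68. Dgka, a diacylglycerol kinase, had means of 534 and 201 CPM for WT and 446 and 216 CPM for DKO. The nearest to Itgb2 was Abi3 (0.06), a gene of the WAVE actin complex, followed by Clip1, Fbxo9, Dctn6 and Tspan13 (0.08 to 0.11, median 0.39). Itgal was nearest to BC037034, Trabd, Galns, Chmp6 and Sec11c (0.09 to 0.10, median 0.39). Their levels differed little between groups, which follows from choosing them by likeness to Itgal. All of these profiles share the same 8 libraries and their depth. By Pearson correlation, which ignores the size of a change, the nearest to Icam1 were Fibp (r = 0.933), N4bp1 (0.892), Relt, Tespa1 and Pim1 (0.888 each). With this correlation in place of the difference, 0 of the 5 nearest genes were shared for Icam1, 2 for Icam2, 1 for Itgal and 2 for Itgb2.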

How the data were processed

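The submitters' processing notes name mm10 as the build and list DESeq2, HTSeq, TopHat2, cutadapt 1.8.3 and bcl2fastq 2.17.1.14. How UMIs were collapsed, whether counting used strand and which annotation it used is not given in the sources. The deposited table holds UMI counts per gene in 8 libraries, named UMI counts per the file headers, and these whole numbers were the input of all tests. The normalized counts that the authors deposited (a linear signal) equalled the UMI counts divided by median-of-ratios size factors in 100% of non-zero values (relative tolerance 1e-06). For 4 comparisons the table also holds the authors' log2 fold changes with their adjusted p-values, quoted only as theirs. Transformed values (8 columns, a column per sample) were not used.

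Genes were filtered with filterByExpr by group (8616 tested, 1796 not), scaled by TMM, and modelled with a coefficient per group over all 8 libraries (edgeR 4.0.16 under R 4.3.3), leaving 4 residual degrees of freedom. The quasi-likelihood test was adjusted by Benjamini-Hochberg over all genes tested. The SE is the log2 change divided by the square root of F, and intervals use the total degrees of freedom of the fit. Every gene in the table had 6 or more UMIs in some library. The labels name no batch. Same-group libraries differed by more than counting noise (chi-square over its degrees of freedom 2.33 to 2.86), so no pair was merged as a repeat deposit of the same library, which does not show that they came from separate animals. Intervals and floors cover counting error only. Whether libraries of different groups overlap is a description with no test, and the share of all genes that separate was not counted.

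Coordinates come from GENCODE M21 (GRCm38, mm10), which holds 10045 of the 10412 symbols. Neighbours were taken from it, since the table has no coordinates. Members, gene lists and tests were chosen with earlier results of these data known. Named genes are the 4 members, the α chains of β2 integrins, up to 4 called genes per list by p on activation and up to 2 between genotypes (or the most abundant), the nearest tested genes on each side of each member and the 5 most alike. Alternatives were DESeq2 1.42.0, its size factors or no TMM in edgeR, a looser filter (a summed count of 1) or a stricter one (10 CPM in 2 libraries), limma-voom 3.58.1 with quality weights, fits on the compared groups, and leaving out libraries. Leaving out the shallow pair, DKO resting replicate 1 and DKO activated replicate 2, leaves 1 library in each DKO group.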

Additional observations from a re-analysis of the deposited data

How the results depend on the processing

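Over 28 values (4 genes in 7 comparisons) and 436 alternative values, 385 kept their direction and their side of the threshold, 16 lost a call, 1 gained one and 34 changed sign, each of these 34 in a value that was not called. All 180 alternative values of the 12 called and named partner genes kept direction and call. The cause of a lost call was not tested.

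The rise of Icam1 in DKO lost its call in 5 of 16 alternatives. Among them were limma-voom (1.56), the fit of the compared groups (1.62) and the fit without both libraries of lowest depth (1.48). On leaving out single libraries the rise ranged from 1.42 to 1.95. The fall of Icam2 in DKO lost its call in 11 of 16 alternatives. Among them were DESeq2 (−0.82), limma-voom (−0.70), the compared groups (−0.80) and the fit without both libraries of lowest depth (−0.30). On leaving out single libraries its values ranged from −1.17 to −0.42. With total UMI count alone, Itgal changed sign on activation in WT (−0.24), DKO (−0.14) and their mean (−0.19), as did Itgb2 in DKO (−0.059), Itgax in the mean (−0.13), and Itgb2 in WT became called (−0.64). This scaling moved the median of all genes to −0.26, −0.17 and −0.22 in these comparisons. Itgal on activation in WT also changed sign with the filter of 10 CPM (−0.0034), limma-voom (−0.00096) and without both shallow libraries (−0.010), and its interaction with DESeq2 (−0.0068). Without both shallow libraries Itgb2 on activation in DKO (−0.014), Itgal between genotypes after activation (0.13), Icam2 between genotypes (−0.072), the interaction of Icam1 (−0.013), Itgam between genotypes (−0.55) and Itgax on activation (−0.066) changed sign. Coro1a between genotypes changed sign with DESeq2 (0.0091) and its size factors (0.0094).

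When single libraries were left out, values ranged from −0.075 to 0.072 (Itgal, activation in WT), −0.33 to 0.26 (Itgal, DKO), −0.16 to 0.13 (Itgal, mean), −0.027 to 0.29 (Itgb2, DKO), −0.61 to 0.14 (Icam2, genotype at rest), −0.13 to 0.25 (Icam2, genotype), −0.48 to 0.12 (Itgal, genotype after activation), −0.16 to 0.46 (Icam1, interaction) and −0.34 to 0.26 (Itgal, interaction). For the partner genes they ranged from −0.21 to 0.37 (Itgax, activation) and, between genotypes, from −0.39 to 0.18 (Itgax), −0.027 to 0.28 (Sipa1), −0.093 to 0.078 (Coro1a), −0.0055 to 0.050 (Cd40) and −0.12 to 1.45 (Itgam).

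Counts of called genes moved by over 1.5 times from 1237 in WT activation (1871 with limma-voom, 504 to 1388 with single libraries left out), 1322 in DKO activation (862 with DESeq2, 553 without both shallow libraries, 695 to 1192 with single ones out), 14 between genotypes at rest (4 with DESeq2, 8 without TMM, 8 with limma-voom, 9 in the compared groups, 6 without both shallow libraries, 3 to 13 with single ones out), 15 after activation (23 with limma-voom, 8 without both, 6 to 36 with single ones out), 18 in the mean (11 without both, 7 to 14 with single ones out) and 0 in the interaction (2 without both, 0 to 2 with single ones out). The share of Icam1 left in DKO stayed within its counting interval, from 6.22 to 9.91% at rest and from 8.53 to 9.24% after activation. No paired analysis was possible because the labels give no replicate numbers, and those used here only name libraries in accession order.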
